A study of Mus musculus with 24 samples.

Results

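Expression of the Q91 knock-in line of mouse embryonic stem cells was compared with that of control cells. The comparison sets 3 arrays titled Q91 against 6 titled control, 9 of the 24 arrays of the series, all from undifferentiated 129/Sv cells under standard growth conditions. Q91 cells carried 85 CAG repeats on the longer allele and 7 on the shorter allele of Hdh, the older name of Htt. Control cells carried 7 on each allele. The 9 arrays of the other knock-in lines (Q20, Q50 and Q111, 3 each, each with 7 repeats on the shorter allele) served as a second comparison. All 24 arrays, 6 of Hdh knock-out cells included, entered the filter and the fit and so share 1 estimate of the spread behind every p-value. In those lines the longer allele had 16 repeats in Q20, 45 in Q50 (43 in its replicate 3) and 111 in Q111. The titles number the arrays as biological replicates without saying whether the 3 Q91 arrays came from separate clones or cultures. P-values therefore measure only the spread between these arrays, and the Q91 allele cannot be told apart from the cell line that carries it. The description field of the labels contradicts the titles for the control arrays, so groups follow the titles and the genotype field.

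Huntingtin, the product of Htt, is a large scaffold protein that takes part in vesicle transport, cilia and transcription, and an expanded CAG tract in its first exon causes Huntington's disease. Mouse embryonic stem cells in the naive state keep a self-renewal network of factors such as Klf4, Esrrb, Tfcp2l1 and Prdm14 around Pou5f1 and Sox2. On the way to the primed state of the later epiblast the naive factors go down and genes such as Pou3f1, Fgf5 and Dnmt3b come up. Actin filaments control the cofactors of serum response factor (SRF), which binds CArG boxes before contractile and cytoskeletal genes, and the Hippo pathway cofactors YAP and TAZ act through TEAD factors on matricellular genes such as Ccn1 and Ccn2.

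Values are log2 expression values per probe set, as the authors normalized them with GCRMA. A probe set entered the test if 3 or more of the 24 arrays gave it a log2 value of at least 5. A gene stands for its brightest tested probe set, and 9511 genes had one. Chromosome 8 was lower as a whole on the Q91 arrays, so its 541 genes were set aside, which left 8970 genes. A difference is always Q91 minus control in log2 units, and a gene is said to have risen or fallen where limma's adjusted p was under 0.05. On arrays, levels are compared only within a probe set.

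The 3 Q91 arrays correlated with each other with r from 0.961 to 0.979, control arrays with r from 0.979 to 0.995, and Q91 with control arrays with r from 0.925 to 0.961. The actin 3' probe set exceeded its 5' probe set by 0.79 to 0.94 on the Q91 arrays and by 0.75 to 1.02 on control arrays, so this sign of RNA quality overlapped between the groups. All 8 embryonic stem cell markers, Pou5f1, Sox2 and Nanog among them, reached a log2 value of 5 on the Q91 arrays. Their summed linear signal was lower there, from 83118 to 101214, against 118270 to 127084 on control arrays. Of the 30 fibroblast markers, chosen because feeder cells can be present in such cultures, 19 stayed under 5 on every Q91 array, among them Dcn, Lum, Postn and Twist1, and 11 reached 5 on at least 1 of them. Several of those 11 were higher in Q91 cells, and some of the 19 were higher on some Q91 arrays, as described with the fibroblast list. Of the primitive endoderm markers 7 of 8, of the trophoblast markers 5 of 7, of the neuroectoderm markers 5 of 6 and of the mesoderm markers all 5 on the array stayed under 5. The other 2 trophoblast markers were Eomes, with 7.42, 6.17 and 5.97 in Q91 cells and 5.20 to 5.64 in control cells, and Krt7, with 3.58, 7.18 and 4.62 in Q91 cells and 3.00 to 4.10 in control cells. The summed linear signal of the 7 trophoblast markers ran from 121 to 255 on the Q91 arrays and from 85.1 to 95.5 on control arrays, and its part in the results was not tested.

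Whole chromosomes moved on the Q91 arrays. The median of the 541 chromosome 8 genes, taken against the control mean, was -0.42, -0.45 and -0.43 on Q91 replicates 1, 2 and 3, and on control arrays it ran from -0.30 in control replicate 4 to 0.10. Chromosome 8 was thus lower on each Q91 array than on any control array, and 223 of its genes (41.2%) fell while 19 (3.51%) rose. The chromosome 8 median was also low on replicate 3 of Q20 (-0.40), Q50 (-0.32) and Q111 (-0.41). It ran from 0.03 to 0.12 on replicates 1 and 2 of those lines. Q91 replicate 1 stood apart from the other 2 Q91 arrays on 2 further chromosomes. On chromosome 1 the median was 0.16 in replicate 1, -0.45 in replicate 2 and -0.41 in replicate 3. On chromosome 11 it was 0.47, -0.08 and -0.08 in the same order. The other knock-in lines showed such shifts too. On chromosome 1 the Q20 arrays ran from -0.46 to -0.42. Q50 replicates 1, 2 and 3 had 0.13, -0.41 and -0.32 there, and Q111 replicates 1, 2 and 3 had -0.49, -0.48 and 0.21. On chromosome 11 the Q20 arrays ran from 0.39 to 0.49, the Q50 arrays from -0.11 to -0.01 and the Q111 arrays from 0.42 to 0.48. On chromosome 14 the median was -0.17, -0.20 and -0.13 on Q91 replicates 1, 2 and 3, within the range of -0.24 to 0.13 on control arrays. Only control replicate 4 was that low. The other control arrays ran from -0.05 to 0.13, above all 3 Q91 arrays. Of the 335 chromosome 14 genes 59 fell and 27 rose (25.7% called, beside 23.4% of all genes). On the other 16 chromosomes outside 1, 8, 11 and 14, the medians ran from -0.05 to 0.22 on the Q91 arrays and from -0.19 to 0.10 on control arrays. Chromosome X was the highest of these on the Q91 arrays, at 0.21, 0.14 and 0.22 on replicates 1, 2 and 3. All 3 lay above the control arrays, which reached at most 0.07 there. Of its 320 genes 90 rose and 15 fell (32.8% called, beside 23.4% of all genes). The arrays of the other knock-in lines ran from 0.08 to 0.24 on chromosome X.

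**Figure D1:**
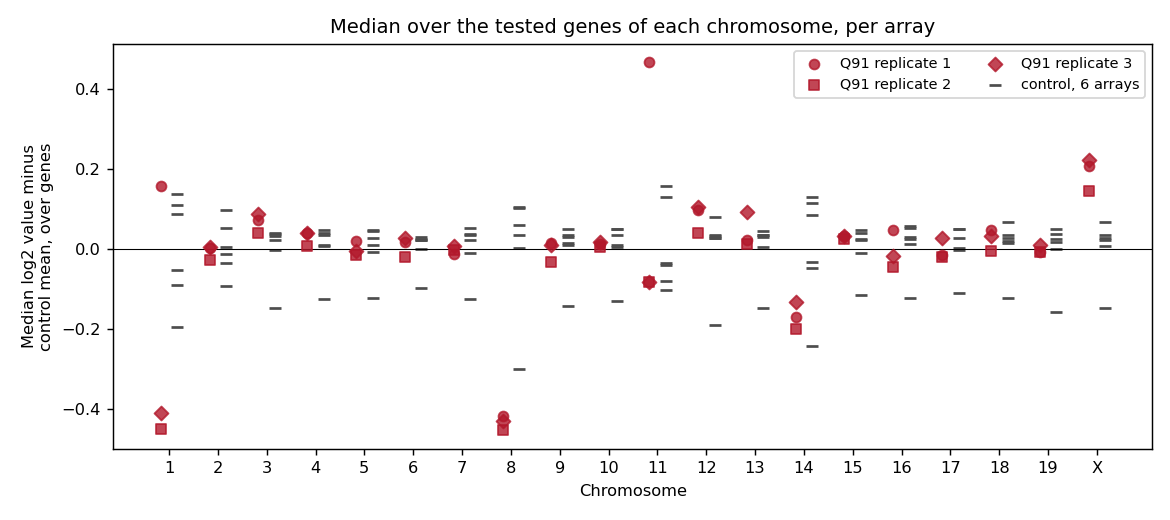
Median over the tested genes of each chromosome (x axis) of the log2 value minus the control mean (y axis), 1 red symbol per Q91 array and 1 grey dash per control array. Chromosome 8 is low on all 3 Q91 arrays (-0.42 to -0.45), and on chromosomes 1 and 11 Q91 replicate 1 (circle) lies apart from replicates 2 and 3.

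On chromosome 8 itself the 4 largest called changes were those of Acta1, Nkx6-3, Mfap3l and Dusp4. Acta1, skeletal muscle actin, had 9.03, 12.32 and 8.68 in Q91 cells, against 3.63 to 4.18 in control cells (median 4.07), a rise of 6.02 (SE 0.94, limma adjusted p = 0.000125). Nkx6-3, a homeobox gene, had 1.44, 1.49 and 1.50 in Q91 cells and 5.81 to 6.94 in control cells (median 6.15), and fell by 4.81 (adjusted p = 9.55e-05, limma). Mfap3l rose by 3.52 and Dusp4, a phosphatase of ERK kinases, by 3.22 although the chromosome as a whole was lower. None of these 4 overlapped between the groups.

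The targeted gene was lower in Q91 cells. The brightest of its 4 probe sets (Htt, chromosome 5) had 6.67, 6.83 and 7.39 in Q91 cells, against 7.45 to 8.25 in control cells (median 8.09). Every Q91 array was below every control array. The means were 6.96 ± 0.38 in Q91 cells (SD, n = 3) and 8.01 ± 0.29 in control cells (SD, n = 6), a fall of 1.05 (SE 0.19, limma adjusted p = 0.000565), which is 2.07-fold. An exact two-sided permutation test gave p = 0.0238, the smallest that 3 against 6 arrays allow, or 0.0317 after Benjamini-Hochberg adjustment over the 4 probe sets. Another 2 probe sets were lower by 0.58 and 0.55 on average, with the same exact p, and the dimmest, under a log2 value of 5 on the Q91 arrays, differed by -0.06 (exact p = 0.667). In Hdh knock-out cells the brightest probe set still had 6.67 to 7.39, with a mean of 7.21. The probe set lower by 0.58 averaged 5.52 in knock-out and 5.83 in control cells, and that lower by 0.55 averaged 6.66 and 6.39. How well these probe sets measure the amount of intact Htt RNA is therefore not settled. A bulk array cannot tell fewer cells that express a gene from less RNA per cell, here and in every result below.

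Over all genes, 1252 of 8970 rose in Q91 cells (14.0%) and 850 fell (9.48%), in total 2102 (23.4%), and the median change was 0.01. Of these, 736 changed at least 2-fold, 539 of them upward and 197 downward, and the large changes were mostly rises, since 77 genes rose and 3 fell at least 8-fold. Every Q91 array was above every control array for 1217 genes (13.6%) and below for 748 (8.34%). Over probe sets, 3629 of 17073 were called (21.3%), 2256 higher (13.2%) and 1373 lower (8.04%). The balance of rises and falls depended on the scaling between arrays: rises made up 62.2% of the called probe sets as deposited, 51.0% after quantile normalization and 47.8% after centring each array on its median. Without Q91 replicate 2 the counts of probe sets were 1350 higher and 630 lower. With chromosomes 1, 11 and 14 set aside as well as 8, a choice made after seeing the data, they were 1957 and 1068. A fit of the Q91 and control arrays alone gave 1785 and 1122. The shares over all genes, 14.0% higher and 9.48% lower, are the background for the counts of every list below.

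The 15 largest rises began with Tagln and Thbs1. Tagln (transgelin, an actin-binding protein of smooth muscle, chromosome 9) had 11.92, 13.73 and 12.04 in Q91 cells, against 3.69 to 5.85 in control cells (median 4.46). The rise was 7.87 (SE 0.68, limma adjusted p = 2.3e-07). Thbs1 (thrombospondin 1, a matricellular protein, chromosome 2) had 9.87, 12.43 and 9.71 in Q91 cells and 2.84 to 3.67 in control cells (median 3.07), a rise of 7.46. For both genes the 3 Q91 arrays lay far above all 6 control arrays, and Q91 replicate 2 was highest. Phldb2, a protein of the cell cortex, rose by 6.57, Myl9, a regulatory myosin light chain, by 5.91, and Anxa3, an annexin, by 5.80. The other 10 of the 15 were Slc25a24 (5.72), Nnat (5.58), Ghr (5.51), Gbp2b (5.50), Tmcc3 (5.49), Actc1 (5.05), Slc40a1 (5.03), Hs6st2 (5.00), Krt8 (4.99) and Vgll3 (4.90). Slc40a1 encodes the iron exporter ferroportin, Ghr the growth hormone receptor and Hs6st2 a heparan sulfate sulfotransferase. Each of the 15 had every Q91 array above every control array. Apart from Anxa3 and Krt8, their control means lay under a log2 value of 5, so the size of these rises is not settled.

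The largest falls were smaller. Inhbb (the beta B subunit of inhibin and activin, chromosome 1) had 8.47, 6.45 and 7.85 in Q91 cells, against 10.21 to 11.59 in control cells (median 11.45), and fell by 3.51 (SE 0.62, limma adjusted p = 0.000421). Dixdc1, a Wnt pathway scaffold, fell by 3.15, Klf15, a zinc finger factor, by 2.95, and Prdm14, a factor of the naive state and of germ cells, by 2.75. Kdelr3, a receptor that retrieves proteins to the endoplasmic reticulum, fell by 2.74, Smarcd3, a subunit of the BAF chromatin remodelling complex, by 2.61, and Myo1f, an unconventional myosin, by 2.53. The others were Nupr1 (-2.53), Mymx (-2.52), Tbx3 (-2.51), Itpka (-2.50), Kank4 (-2.46), Igsf21 (-2.41), Epas1 (-2.40) and Khdc3 (-2.40). Epas1, which encodes the hypoxia factor HIF-2 alpha, had 8.05, 7.48 and 8.32 in Q91 cells and 9.87 to 10.79 in control cells (median 10.46). Khdc3, an oocyte and early embryo gene, had 9.89, 6.49 and 7.98 in Q91 cells and 10.34 to 10.71 in control cells (median 10.52). It was low mainly on Q91 replicates 2 and 3, and without replicate 2 its change of -1.58 missed the threshold (adjusted p = 0.106). Dixdc1, Klf15, Itpka, Kank4 and Igsf21 averaged under 5 in Q91 cells, so the size of their falls is not settled.

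**Figure D2:**
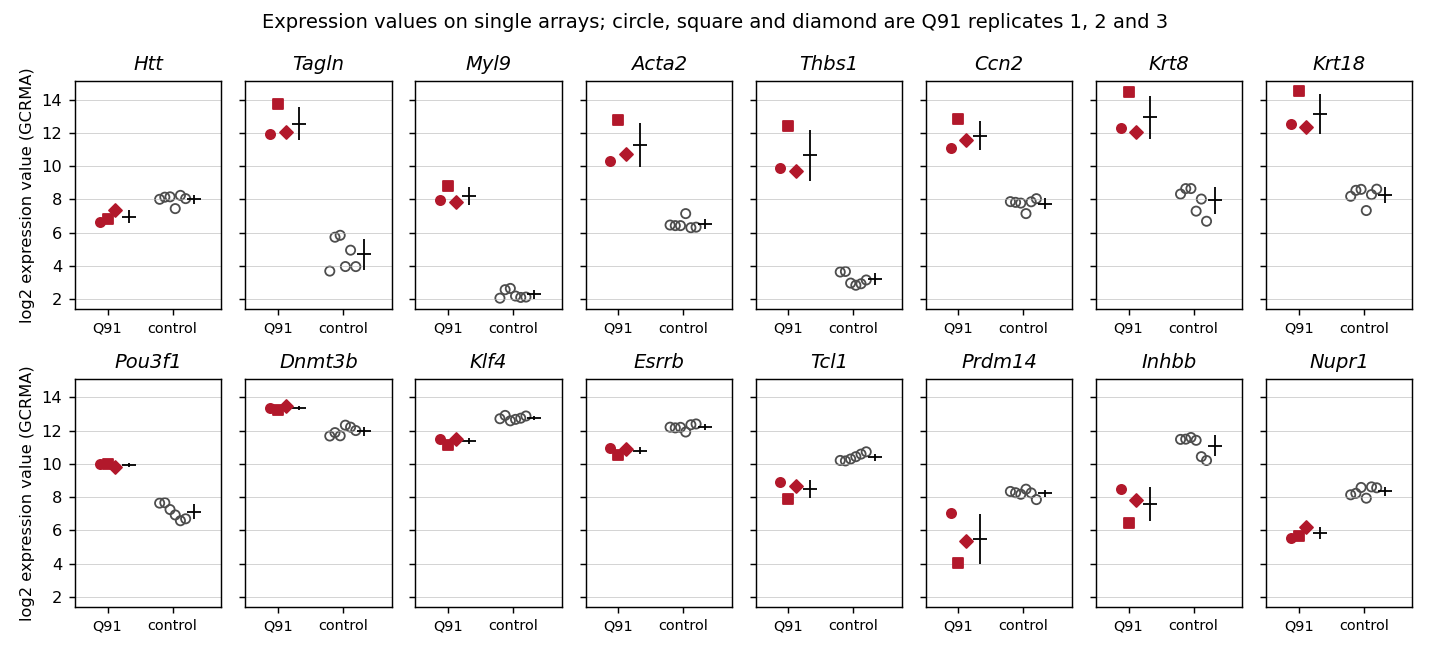
Log2 expression values (y axis) of 16 genes on the 3 Q91 arrays (red; circle, square and diamond for replicates 1, 2 and 3) and the 6 control arrays (open circles), with the mean and SD of each group to the right. No Q91 array overlaps a control array for any of these genes; the contractile, matricellular and keratin genes are highest on Q91 replicate 2, and Dnmt3b and Pou3f1 are nearly equal on the 3 Q91 arrays.

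Among actin and SRF-regulated contractile genes, 20 of 27 members rose, none fell, and 7 did not pass the test, beside 14.0% and 9.48% of all genes. The median change was 1.57, beside 0.01 over all genes. Of the 20, 4 had a control mean under 5 and could enter the test through the knock-in arrays. These genes were listed because SRF or its cofactors are known to act on them. Their order by p began with Myl9, which had 7.95, 8.82 and 7.83 in Q91 cells and 2.07 to 2.65 in control cells (median 2.16). Acta2, smooth muscle actin, had 10.33, 12.79 and 10.76 in Q91 cells, against 6.30 to 7.15 in control cells (median 6.43), a rise of 4.77 (SE 0.53, limma adjusted p = 3.3e-06). The focal adhesion protein Zyx rose by 3.59, the smooth muscle calponin Cnn1 by 4.81 and the tropomyosin Tpm1 by 3.17. All of these separated the groups. Tpm1 had 12.09, 13.66 and 12.20 in Q91 cells and 9.27 to 9.64 in control cells (median 9.53), which shows the rise in a gene that both groups express well. Srf itself, outside the naming rule and chosen after its values were seen, had 9.04, 10.15 and 8.84 in Q91 cells and 7.80 to 8.57 in control cells (median 8.39), and rose by 1.03 (SE 0.25, limma adjusted p = 0.00521). The difference in Srf was 0.63 without Q91 replicate 2 and missed the threshold (limma adjusted p = 0.0823).

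The promoters of 4 of the genes that rose are shown because each holds a CArG box, the SRF site, in the 250 bases before its RefSeq start (build GRCm38.p6, 5′ to 3′ on the gene's strand). The motif searched was CC, any 6 letters of A or T, then GG, which reads the same on both strands. Capitals mark the box. Actc1 (chr2:114052876-114053125, minus strand), Myl9 (chr2:156775214-156775463, plus strand), Srf (chr17:46556163-46556412, minus strand) and Vcl (chr14:20929148-20929397, plus strand) follow.
Actc1: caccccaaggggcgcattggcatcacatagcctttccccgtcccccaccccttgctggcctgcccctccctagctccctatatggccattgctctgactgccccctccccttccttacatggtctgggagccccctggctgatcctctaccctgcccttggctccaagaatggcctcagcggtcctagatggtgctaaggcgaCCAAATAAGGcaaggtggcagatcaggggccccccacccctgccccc
Myl9: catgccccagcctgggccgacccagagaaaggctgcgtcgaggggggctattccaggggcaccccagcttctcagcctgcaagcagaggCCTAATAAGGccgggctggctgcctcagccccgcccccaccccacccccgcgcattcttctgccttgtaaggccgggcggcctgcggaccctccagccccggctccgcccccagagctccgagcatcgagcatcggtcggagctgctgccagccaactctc
Srf: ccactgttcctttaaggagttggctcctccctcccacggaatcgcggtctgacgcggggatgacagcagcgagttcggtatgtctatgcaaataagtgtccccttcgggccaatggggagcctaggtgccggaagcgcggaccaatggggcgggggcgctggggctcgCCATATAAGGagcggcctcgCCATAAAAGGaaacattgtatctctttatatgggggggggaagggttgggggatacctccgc
Vcl: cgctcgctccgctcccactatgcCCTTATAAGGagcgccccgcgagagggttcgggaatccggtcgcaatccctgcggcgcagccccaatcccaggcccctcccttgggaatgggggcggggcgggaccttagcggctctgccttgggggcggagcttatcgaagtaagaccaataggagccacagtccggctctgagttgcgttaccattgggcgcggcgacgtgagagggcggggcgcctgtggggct
A CArG box stood in 482 of 32851 RefSeq promoter windows of this length (1.47%). Of the 20 contractile genes that rose, 18 had an entry and 7 of these held a box, while of the 7 that did not pass, 5 had an entry and 1 held a box. A gene counted if any of its windows held a box, whereas 1.47% is a share of single windows. Because the list was drawn from known SRF genes, these shares describe the list and say nothing about binding in these cells. Actc1, cardiac actin and not itself a member of the list, had 8.86, 9.10 and 6.47 in Q91 cells and 2.93 to 3.23 in control cells (median 3.08). Vcl (vinculin, a focal adhesion protein, chosen after its values were seen) had 11.51, 12.68 and 11.43 in Q91 cells and 10.24 to 10.84 in control cells (median 10.49), a rise of 1.34 (limma adjusted p = 0.000348). The groups did not overlap for either gene, and Vcl, with 1 box, changed less than Actc1 or Myl9, with 1 box each.

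Among matricellular and YAP/TEAD-regulated genes, 11 of 19 rose and none fell, with a median change of 1.33, beside 14.0% of all genes higher. Of the 11, 3 had a control mean under 5, Thbs1 among them. Ccn2, connective tissue growth factor, had 11.12, 12.85 and 11.56 in Q91 cells, against 7.15 to 8.05 in control cells (median 7.84). The means were 11.84 ± 0.89 in Q91 cells (SD, n = 3) and 7.76 ± 0.31 in control cells (SD, n = 6), a rise of 4.09 (SE 0.35, limma adjusted p = 2.14e-07). Ccn1, its close relative, had 11.80, 13.41 and 10.67 in Q91 cells and 6.96 to 8.10 in control cells (median 7.82), a rise of 4.24. Both groups were apart on every array. Amotl2, a Hippo pathway scaffold, rose by 2.26, F3, tissue factor, by 3.21, and the phosphatase Ptpn14 by 1.94. Yap1, which encodes the cofactor (named after its values were seen), had 10.91, 10.96 and 10.85 in Q91 cells and 10.51 to 10.85 in control cells (median 10.66), a difference of 0.23 that missed the threshold (limma adjusted p = 0.178). The TEAD letters GGAATG, on either strand, stood in 12.6% of all windows. They stood in 6 of the 8 risen members with an entry and in 3 of the 5 others. A member counted if any of its windows held the letters, whereas 12.6% is a share of single windows. Because the list was made of matricellular and YAP/TEAD-regulated genes, these shares describe the list and say nothing about binding in these cells.

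Simple epithelial keratins and junction genes had the highest median change of the lists described, 2.85, with 13 of 15 members higher and none lower. Krt8 had 12.27, 14.44 and 12.08 in Q91 cells, against 6.69 to 8.66 in control cells (median 8.18), and its partner Krt18 had 12.54, 14.50 and 12.34 in Q91 cells, against 7.34 to 8.62 in control cells (median 8.42). Krt8 rose 31.7-fold (limma adjusted p = 0.000127), and Krt18 29.0-fold (adjusted p = 9.28e-06). These filament proteins pair in simple epithelia, and for both every Q91 array lay above every control array. The annexin Anxa2 rose by 3.22, the galectin Lgals1 by 1.94, and the tight junction claudins Cldn6 and Cldn7 by 4.72 and 2.95.

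Of 10 cadherin and mesenchymal genes 7 rose, some of them known from epithelia and some from mesenchyme, and 1 fell, with a median change of 1.01. Cdh2 (N-cadherin) had 9.20, 9.50 and 8.57 in Q91 cells and 4.86 to 6.57 in control cells (median 6.28), a rise of 2.99 (SE 0.45, limma adjusted p = 8.0e-05). Epcam, an epithelial adhesion molecule, rose by 1.07 and Esrp1, an epithelial splicing regulator, by 1.98, as did the adhesion receptors Itgav (1.44) and Cd44 (2.78). Zeb1, a repressor of epithelial genes, was the member that fell, with 5.72, 3.05 and 4.75 in Q91 cells and 6.10 to 7.45 in control cells (median 6.72). Without Q91 replicate 2 neither Itgav (adjusted p = 0.0579) nor Zeb1 (adjusted p = 0.0907) passed in limma.

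The naive pluripotency network was lower while the core factors stayed high. Of the 17 naive factors 9 fell and none rose, with a median change of -0.99. With chromosomes 1, 11 and 14 set aside as well as 8, 6 of those falls remained, and Prdm14, on chromosome 1, was left out. Klf4 had 11.48, 11.16 and 11.49 in Q91 cells, against 12.59 to 12.92 in control cells (median 12.73), and fell by 1.38 (SE 0.18, limma adjusted p = 1.6e-05), which is 2.59-fold. Esrrb, an orphan nuclear receptor, had 10.94, 10.55 and 10.92 in Q91 cells and 11.92 to 12.40 in control cells (median 12.20), a fall of 1.40. Prdm14 had 7.06, 4.02 and 5.36 in Q91 cells, against 7.85 to 8.48 in control cells (median 8.26). For all 3 genes every Q91 array was below every control array, and the Q91 arrays agreed closely for Klf4 and Esrrb and were spread widely for Prdm14. Tcl1, a coactivator of AKT, fell by 1.92, the DNA demethylation enzyme gene Tet2 by 1.27 and the factor Tfcp2l1 by 1.72.

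Of the 11 core pluripotency factors 1 rose, 2 fell and 8 did not pass, beside 14.0% of all genes higher and 9.48% lower. Pou5f1 had 14.42, 14.61 and 14.72 in Q91 cells and 14.47 to 14.74 in control cells (median 14.53), with a difference of 0.02 (limma adjusted p = 0.941) whose sign depended on the scaling. Sox2 had 13.94, 13.78 and 14.04 in Q91 cells and 14.21 to 14.53 in control cells (median 14.39), a fall of 0.48, and Utf1 fell by 0.55. Lin28a, an RNA-binding protein, rose by 0.35. As the mean of all its probe sets Lin28a differed by 0.26 and missed the threshold (limma adjusted p = 0.273). It also missed it with control replicates 1 to 3 only (limma adjusted p = 0.0807) and with the replicate number as a block (limma adjusted p = 0.0516). The groups overlapped for Pou5f1 and were apart for Sox2, but the fall of Sox2 missed the threshold without Q91 replicate 2 (adjusted p = 0.0534) and that of Utf1 without any 1 of the Q91 arrays or without control replicate 2 or 4 (adjusted p = 0.0600 to 0.102), in limma. Nanog, counted among the naive factors, had 14.00, 12.73 and 13.19 in Q91 cells and 13.91 to 14.07 in control cells (median 14.01), and fell by 0.69 (limma adjusted p = 0.0251), with replicate 1 within the control range. The Nanog call was lost without Q91 replicate 2 (a difference of -0.40, limma adjusted p = 0.258) or replicate 3 (limma adjusted p = 0.0948), with control replicates 1 to 3 or 4 to 6 alone, and in a fit of the Q91 and control arrays alone (limma adjusted p = 0.0610). Tdgf1, an epiblast co-receptor of Nodal, differed by 0.05 (limma adjusted p = 0.776). Rif1, Zfp281 and Trim28 had differences of 0.13, -0.26 and -0.12 that did not pass.

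Genes of the primed epiblast were higher: 8 of 14 rose, 1 of them with a control mean under 5, none fell, and the median change was 1.59. Pou3f1, a POU factor of the epiblast and neural lineage, had 10.02, 10.02 and 9.79 in Q91 cells, against 6.58 to 7.67 in control cells (median 7.09), a rise of 2.81 (SE 0.33, limma adjusted p = 6.06e-06). Dnmt3b, a DNA methyltransferase, had 13.37, 13.23 and 13.49 in Q91 cells and 11.68 to 12.33 in control cells (median 11.94), a rise of 1.40. These 2 genes were even across the Q91 arrays, unlike the contractile genes. Sall2 rose by 2.15. Krt18, Cdh2 and Cldn6, described above, belong to this list as well, so the lists are not separate counts.

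**Figure D3:**
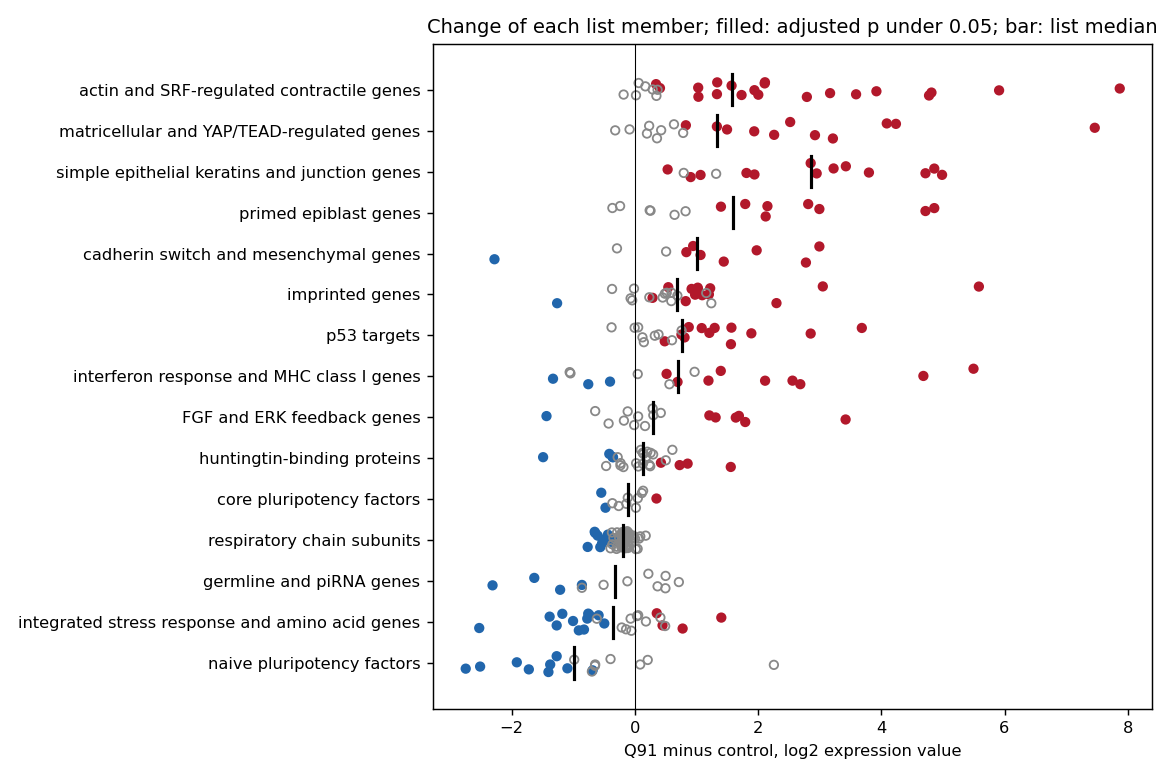
Change in log2 expression value, Q91 minus control (x axis), of each member of 15 gene lists, 1 dot per gene. Filled dots passed the test (red higher, blue lower), open dots did not, and the black bar is the list median, which runs from 2.85 for the keratin list to -0.99 for the naive pluripotency factors.

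Fibroblast markers were examined because the contractile and matrix genes above are also expressed by fibroblasts. Of the 30 markers 12 passed the filter on dim values, 1 of them on chromosome 8. Of the other 11, 7 rose, 2 of them with a control mean under 5, none fell, and the median change was 1.00. Without Q91 replicate 1 or control replicate 4, 1 member fell. Col1a1, a chain of type I collagen, had 8.44, 8.42 and 5.57 in Q91 cells and 3.45 to 3.94 in control cells (median 3.80), a rise of 3.74 (limma adjusted p = 9.6e-05). Col5a1 rose by 2.13, the growth factor binding protein Igfbp3 by 2.85, Sparc by 1.00, Fstl1 by 1.05 and Col1a2 by 1.33. Dcn, Lum, Postn and Twist1 stayed under 5 on every Q91 array, Dcn at 2.23, 2.28 and 2.27. Under 5, Twist1 had 3.06, 3.67 and 3.98 in Q91 cells and at most 3.23 in control cells. Col3a1 had 4.38, 4.10 and 3.21 (control at most 3.44), and Col5a2 had 4.24, 2.83 and 2.81 (control at most 2.94). Loxl1 went the other way, with 2.79, 2.83 and 2.56 in Q91 cells and at least 2.81 in control cells. The summed linear signal of all 30 markers ran from 19242 to 44945 on the Q91 arrays and from 16884 to 22280 on control arrays. Without Q91 replicate 2 the count of risen markers was 4, with Sparc and Fstl1 among those lost, and Col1a2 was lost without replicate 1. The count was also 4 with chromosomes 1, 11 and 14 set aside as well as 8. The part of other cells in the contractile and matrix results was not tested.

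p53 targets were higher in part: 12 of 21 rose, none fell, and the median change was 0.76. Ccng1 (cyclin G1) had 13.38, 13.75 and 13.26 in Q91 cells, against 11.63 to 12.32 in control cells (median 11.72), a rise of 1.57 (SE 0.20, limma adjusted p = 1.67e-05). The stress protein gene Trp53inp1 rose by 1.56, the polo-like kinase Plk2 by 3.68, Mdm2, the p53 ubiquitin ligase, by 1.08, and the junction protein Perp, also among the junction genes, by 2.85. Eda2r had 9.21, 10.57 and 10.35 in Q91 cells and 8.46 to 9.30 in control cells (median 8.75), so replicate 1 lay inside the control range. Without Q91 replicate 2, which carried the highest list median (1.40, beside 0.37 and 0.50 in replicates 1 and 3), the count was 7, and with control replicates 4 to 6 alone it was 7.

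Genes of the integrated stress response and of amino acid synthesis and transport went the other way: 12 of 26 fell, 4 rose, and the median change was -0.36. Nupr1, a stress-induced chromatin protein, had 5.57, 5.65 and 6.23 in Q91 cells, against 7.94 to 8.62 in control cells (median 8.40), and fell by 2.53 (SE 0.29, limma adjusted p = 4.39e-06). Aldh18a1, an enzyme of proline synthesis, had 8.85, 9.15 and 8.83 in Q91 cells and 9.96 to 10.38 in control cells (median 10.08), a fall of 1.18. Chac1, which degrades glutathione, had 6.97, 6.58 and 6.90 in Q91 cells and 8.06 to 8.32 in control cells (median 8.22), a fall of 1.38. The Q91 arrays were close to each other and clear of the control arrays in all 3 genes. The serine pathway enzymes Shmt2 and Psat1 fell by 0.91 and 0.59, and Slc3a2, a subunit of amino acid transporters, by 0.50. Atf4, the transcription factor of this response (chosen after its values were seen), had 11.28, 11.51 and 11.68 in Q91 cells and 12.28 to 12.89 in control cells (median 12.44), a fall of 1.00 (limma adjusted p = 0.000856). The members that rose were Cth, an enzyme of cysteine synthesis (1.40), Atf3 (0.77) and the endoplasmic reticulum chaperones Hspa5 (0.45) and Hsp90b1 (0.35). Hsp90b1 missed the threshold without Q91 replicate 3 (limma adjusted p = 0.0611).

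Respiratory chain subunits were slightly lower as a list: 14 of 66 fell and none rose, beside 9.48% and 14.0% of all genes. The median change was -0.19. Cox5a had 14.61, 14.68 and 14.62 in Q91 cells, against 14.93 to 15.11 in control cells (median 14.98), a fall of 0.36 (limma adjusted p = 0.0006). Atp5j, Uqcrc1, Ndufb8, Atp5o and Cox5b fell by 0.60, 0.56, 0.64, 0.77 and 0.53, and each of these 6 separated the groups. These changes are small, and without single arrays the count was 5 (Q91 replicate 2, where Cox5b was among those lost), 7 (Q91 replicate 3) or 9 (control replicate 2).

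Imprinted genes, expressed from 1 parental allele, were higher on balance: 13 of 27 rose, 3 of them with a control mean under 5, 1 fell, and the median change was 0.69. Slc38a4, an amino acid transporter, had 11.99, 12.31 and 12.32 in Q91 cells, against 10.91 to 11.49 in control cells (median 11.28), a rise of 0.98 (SE 0.15, limma adjusted p = 9.2e-05). Impact rose by 1.02, but as the mean of all its probe sets it differed by 0.32 and missed the threshold (limma adjusted p = 0.331). Peg3 rose by 1.20, Gnas by 1.02 and Nnat, a neuronal proteolipid, by 5.58. Igf2, the fetal growth factor, had 5.76, 10.22 and 7.67 in Q91 cells and 4.54 to 5.17 in control cells (median 4.81), a rise of 3.05, with replicate 2 far above replicate 1. Ddc was the member that fell, by 1.26, with 10.36, 8.45 and 8.58 in Q91 cells and 10.15 to 10.68 in control cells (median 10.43), so only replicates 2 and 3 were low. With chromosomes 1, 11 and 14 set aside as well as 8, Ddc was left out and no member fell.

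Interferon response and MHC class I genes were mixed: 9 of 17 rose, 3 fell, and the median change was 0.69, beside 14.0% of all genes higher and 9.48% lower. Of the 9, 4 had a control mean under 5. Gbp2b, a guanylate-binding protein, had 9.10, 8.69 and 6.43 in Q91 cells, against 2.50 to 2.65 in control cells (median 2.59). Gbp2 rose by 4.68, Gbp3 by 2.56, Tapbp, a chaperone of MHC class I loading, by 2.11 and the factor Irf1 by 1.19. Gbp3 had 8.84, 6.28 and 4.84 and Tapbp 10.79, 10.34 and 9.13 on Q91 replicates 1, 2 and 3, and all were above the control arrays, whose highest values were 4.52 and 8.24. The list median was 1.09, 0.74 and 0.33 in that order, so replicate 1 was highest here and not replicate 2. Irf9 fell by 0.76 with 6.59, 6.41 and 6.16 in Q91 cells and 7.02 to 7.33 in control cells (median 7.10), and Ifitm2 and Oas1a fell by 0.40 and 1.33. In limma Ifitm2 missed the threshold without Q91 replicate 2 (adjusted p = 0.103), and Oas1a without Q91 replicate 2 or 3 or without any 1 of control replicates 1, 2, 3 and 5 (adjusted p = 0.0622 to 0.273).

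Proteins that bind huntingtin changed in both directions, 4 of 27 higher and 4 lower, with a median change of 0.13, which is close to the background of 14.0% and 9.48%. Hap1, huntingtin-associated protein 1, had 7.31, 6.73 and 6.51 in Q91 cells, against 7.87 to 8.75 in control cells (median 8.28), a fall of 1.49 (SE 0.27, limma adjusted p = 0.00043). Hip1, huntingtin-interacting protein 1, had 6.76, 7.91 and 7.19 in Q91 cells and 5.13 to 6.01 in control cells (median 5.84), a rise of 1.56. Neither overlapped between the groups. Dnm1l, which divides mitochondria, rose by 0.73 and the profilin Pfn2 by 0.86, while Nsf, Dctn1 and Git1 fell by 0.36, 0.36 and 0.42. The count of those that fell was 2 without Q91 replicate 3. It was 1 with chromosomes 1, 11 and 14 set aside as well as 8. Dctn1 was lost without Q91 replicate 3 (limma adjusted p = 0.112), and Git1 without any 1 of 7 arrays, namely Q91 replicates 2 and 3 and the control replicates other than 4 (limma adjusted p = 0.0581 to 0.321).

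Of 17 FGF and ERK feedback genes 6 rose and 1 fell, beside 14.0% of all genes higher and 9.48% lower. The count of those that rose was 3 without Q91 replicate 2, and the 1 fall was lost whichever single Q91 or control array was left out. Of 12 germline and piRNA genes none rose and 4 fell, beside the same shares of all genes. Without Q91 replicate 2 or without replicate 3, 2 of them fell.

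The 3 Q91 arrays did not shift alike in every list. The median of the contractile list was 0.97, 2.25 and 0.89 on replicates 1, 2 and 3, that of the YAP/TEAD list 0.95, 2.21 and 0.83, and that of the keratin list 1.70, 3.62 and 2.27. Control arrays ran from -0.21 to 0.12, from -0.14 to 0.05 and from -0.64 to 0.25 for these lists. Replicate 2 was highest in all 3. The primed epiblast median was 2.28, 0.70 and 1.60, so replicate 2 was lowest there, and the naive median was -1.17, -1.29 and -0.80, beside -0.01 to 0.08 on control arrays. With each Q91 array on the same side of all control arrays in these 5 lists, the direction held per array and the size did not.

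**Figure D4:**
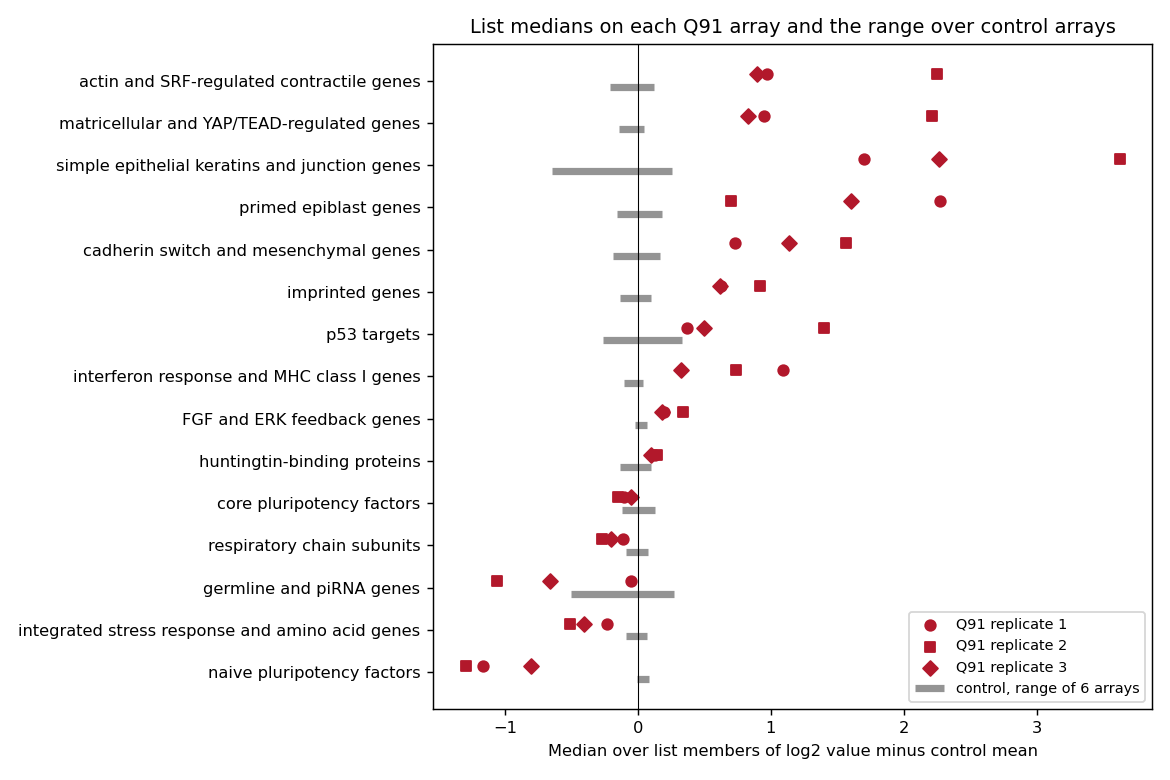
Median over the members of each list of the log2 value minus the control mean (x axis) on the 3 Q91 arrays (red symbols) and the range over the 6 control arrays (grey bar). Q91 replicate 2 (square) is highest for the contractile, YAP/TEAD, keratin and p53 lists (2.25, 2.21, 3.62 and 1.40), and replicate 1 (circle) for the primed epiblast and interferon lists.

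Set against the mean of the Q20, Q50 and Q111 lines, Q91 differed in few genes. Of 8970 genes 24 were higher (0.268%) and 43 lower (0.479%) in Q91, and over probe sets 35 were higher (0.205%) and 87 lower (0.510%). These counts hung on single arrays: without Q91 replicate 1 they were 307 and 689 probe sets, without replicate 2 they were 6 and 16, and without replicate 3 they were 26 and 37. Without Q50 replicate 3 they were 66 and 140, and with only the knock-in lines in the fit they were 1 and 7. The genes below are therefore those of this fit. Of the called genes with a characterised symbol, 7 higher and 10 lower ones had every Q91 array beyond all 9 arrays of the other lines, a separation that 0.190% of all genes showed upward and 0.368% downward, called or not.

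Actc1 had 8.86, 9.10 and 6.47 in Q91, against 3.07 to 6.29 in the other lines (median 5.75), a difference of 3.15 (SE 0.51, limma adjusted p = 0.00417). Acta2 had 10.33, 12.79 and 10.76 in Q91, against 7.05 to 10.30 in the other lines (median 9.24), a difference of 2.21. Both actins lay above the other lines on every Q91 array, Acta2 on replicate 1 only just. Ptpn13, a phosphatase, had 7.09, 7.30 and 6.34 in Q91 and 5.24 to 6.19 in the other lines (median 5.60), a difference of 1.28 (limma adjusted p = 0.000564). Trub1, a tRNA pseudouridine synthase, had 9.88, 9.82 and 9.99 in Q91, against 8.47 to 9.74 in the other lines (median 8.92). The Q111 arrays, from 9.71 to 9.74, were just below the Q91 arrays and above the Q20 and Q50 arrays. Fam13c, whose lowest Q91 value equalled the highest of the other lines at 8.08 after rounding, Prps2 (a nucleotide synthesis enzyme) and Slc25a44 (a mitochondrial carrier) were higher by 1.00, 0.72 and 0.48.

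Lower in Q91 than in the other lines was Nupr1, with 5.57, 5.65 and 6.23 in Q91 and 6.40 to 8.19 in the other lines (median 7.08), a difference of -1.35 (limma adjusted p = 0.0223). Mfsd13a, on chromosome 19, had 9.79, 9.67 and 9.58 in Q91, against 10.31 to 11.07 in the other lines (median 10.79), a difference of -1.05 (limma adjusted p = 0.000461). Aldh18a1 had 8.85, 9.15 and 8.83 in Q91 and 9.20 to 9.93 in the other lines (median 9.69), a difference of -0.68. No Q91 array reached the other lines in these 3 genes. Pmel, Fam25c and Dnajc6 (auxilin, which uncoats vesicles) were lower by 1.29, 1.26 and 1.17 in size, and Morc1, a germ cell gene, and Polg, the mitochondrial DNA polymerase, differed by -0.63 and -0.60. The last 2, chosen after their values were seen, were Mthfd2 (-0.49), an enzyme of mitochondrial folate metabolism, and the small GTPase Arl3 (-0.47). Chromosome 19 held 8 of the 67 called genes and 317 of the genes tested, Trub1, Acta2, Mfsd13a, Aldh18a1 and Arl3 among them. Pmel did not pass against control (limma adjusted p = 0.299). Without Q91 replicate 2 the calls of Actc1, Nupr1, Acta2, Fam13c, Prps2, Slc25a44, Pmel, Fam25c, Dnajc6 and Morc1 against the other lines were lost, with limma adjusted p from 0.0899 for Actc1 to 0.474 for Acta2, and so were those of Mthfd2 and Arl3. Without Q91 replicate 3 the calls of Acta2, Aldh18a1, Fam13c, Prps2, Slc25a44, Pmel, Fam25c, Dnajc6, Mthfd2 and Arl3 were lost (limma adjusted p = 0.0726 to 0.129), and that of Slc25a44 also without replicate 1 (limma adjusted p = 0.0647). Mthfd2 was lost without any 1 of the control replicates other than 4 (limma adjusted p = 0.0575 to 0.0623). With only the knock-in lines in the fit, Trub1 and Mfsd13a alone of these 17 genes kept their calls. With the replicate number as a block, the calls of Nupr1, Fam13c, Prps2, Slc25a44, Pmel, Fam25c, Dnajc6, Mthfd2 and Arl3 were lost (limma adjusted p = 0.0519 to 0.101).

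**Figure D5:**
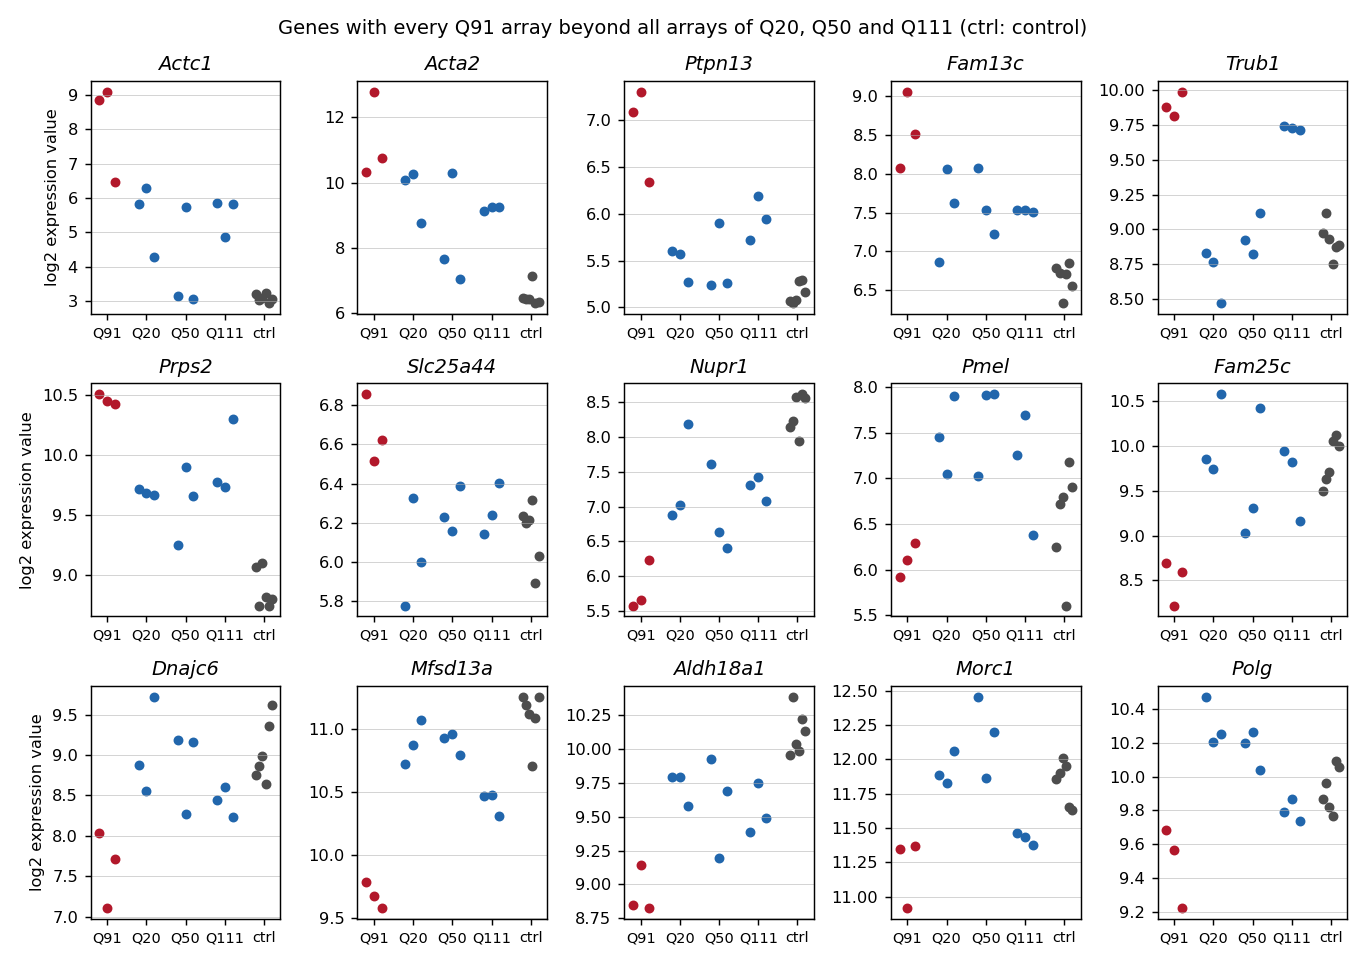
Log2 expression values (y axis, a scale of its own per gene) of the 15 genes named by rule for Q91 against the other knock-in lines, 1 dot per array, in Q91 (red), Q20, Q50 and Q111 (blue) and control cells (grey). Each Q91 dot lies beyond all 9 blue dots, by a hair for Fam13c, Morc1 and Acta2, where the nearest dots nearly touch.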

How the data were processed

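Total RNA of undifferentiated cells was measured on 1-colour Affymetrix arrays. The deposited log2 values are normalized; the submitters' processing notes name GCRMA and no version. Of 45101 probe sets, 64 control probe sets were left out and 17980 passed the filter (a log2 value of 5 reached on 3 of 24 arrays), of which 907 on chromosome 8 were set aside. Symbols came from GEO's platform annotation, in which 34945 probe sets have 1 gene, 932 several and 9160 none.

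All 24 arrays entered 1 limma fit (version 3.58.1, R 4.3.3) in which each group had its own mean and 18 degrees of freedom were left, and p-values were adjusted by Benjamini-Hochberg over the 17980 probe sets. In data simulated for Q91 against control, known changes were added to a small part of the 17980 probe sets, on independent normal noise. Of log2 changes of 0.5, 1, 2 and 3, 22%, 66%, 98% and 98% were recovered, with 9 false calls. A far larger part of the probe sets was called in the real data, so these shares hold for the simulated setting only. Members and lists were chosen with earlier results of these data known. Named genes were the 15 largest rises and 15 largest falls without overlap between the groups, up to 8 in each direction against the other lines, up to 6 members per list by p with those of opposite direction, 4 chromosome 8 genes, Htt and stem cell markers. Precision is limited by the number of arrays. Alternatives changed the scaling, the filter, the arrays in the fit and the probe set rule.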

Additional observations from a re-analysis of the deposited data

Results flagged for a closer look

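Single control arrays stood apart from the other 5 in 9 of the 140 groups of arrays checked, beside about 1 in 20 that the rule flags by chance. The cause was not tested. Acta2 was high on 1 control array, at 7.15, with the next at 6.46. Values lay low on 1 control array for Htt (7.45), Krt18 (7.34), Cdh2 (4.86), Ccn2 (7.15), Perp (6.30), Srf (7.80) and Mfsd13a (10.70). The chromosome 8 median of control replicate 4 was -0.30, and the nearest control array was at 0.00. This array was not low on chromosome 8 alone. It had the lowest control median on every chromosome examined, from -0.09 on chromosome 2 to -0.30 on chromosome 8.

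Genes whose change differed between Q91 and the mean of the other knock-in lines, tested in limma as a contrast, are listed by their log2 difference, Q91 minus the other lines. Higher in Q91 were Actc1 (3.15), Acta2 (2.21), Ptpn13 (1.28), Fam13c (1.00), Trub1 (0.77), Prps2 (0.72) and Slc25a44 (0.48). Lower were Nupr1 (-1.35), Pmel (-1.29), Fam25c (-1.26), Dnajc6 (-1.17), Mfsd13a (-1.05), Aldh18a1 (-0.68), Morc1 (-0.63), Polg (-0.60), Mthfd2 (-0.49) and Arl3 (-0.47).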

How the results depend on the processing

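Of 140 single gene results, 104 kept their direction and their side of the threshold under every alternative, 34 lost a call under at least 1, and 2 that were not called changed sign. Pou5f1 turned to -0.0587 with median centring, -0.0516 without Q91 replicate 3, and -6e-05, -0.00454 and -0.00096 without control replicates 1, 3 and 5, and Tdgf1 to -0.0278 with median centring and, with single arrays left out, ran from -0.0465 (Q91 replicate 3) to 0.161 (Q91 replicate 2). Against control, probe sets numbered 1491 higher and 544 lower with control replicates 4 to 6 only, and 1350 to 2217 higher and 630 to 1623 lower with 1 array left out. Against the other lines, 1 was higher and 7 lower with only the knock-in lines in the fit, and 66 and 140 without Q50 replicate 3, an alternative chosen after seeing the data. With 1 array left out the counts ran from 6 to 307 higher and from 16 to 689 lower, and the lower count was 46 with no filter and 135 with chromosome 8 kept. p53 targets that rose numbered 7 with control replicates 4 to 6 only and 7 to 15 with 1 array left out. The chromosome 8 median was -0.12 with no filter. Same-numbered Q91 and control arrays had deviations correlated at -0.04, 0.06 and 0.10. The labels do not say whether arrays with the same number share a batch or culture, and these values cannot decide it. Against same-numbered Q50 arrays the correlations were 0.32, 0.41 and 0.20, while against Q20 and Q111 arrays they included values below 0. With the replicate block 1694 were higher and 1024 lower against control, and 45 lower against the other lines. The causes were not tested. Dim values, under a log2 value of 5, limit the size of many changes.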

Other observations

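Some genes differed widely among the 3 Q91 arrays and were chosen after their values were seen. Grb10, an imprinted adaptor on chromosome 11, had 7.24, 11.73 and 11.66 on Q91 replicates 1, 2 and 3, against 9.69 to 10.80 on control arrays (median 10.33). Cdkn1c, an imprinted inhibitor of cyclin-dependent kinases, had 6.51, 10.25 and 10.68 in Q91 cells and 7.38 to 8.49 in control cells (median 7.88). Replicate 1 was thus below and replicates 2 and 3 above the control range for both genes.

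Calcoco2, an autophagy receptor on chromosome 11, had 12.06, 7.93 and 8.28 in Q91 cells and 9.33 to 11.37 in control cells (median 9.63). The X-linked genes Scml2 (8.56, 3.92 and 3.92 in Q91 cells, against 3.74 to 5.56 in control cells) and Pnma5 (9.59, 3.88 and 4.74 in Q91 cells, against 3.53 to 6.50 in control cells) were high on replicate 1 alone. Replicate 2 alone was high for the AP-1 factor Fosl2, with 3.53, 7.61 and 2.53 in Q91 cells and 2.21 to 2.38 in control cells, and was highest for the ephrin Efna5, with 3.46, 8.59 and 5.30 in Q91 cells and 3.15 to 3.46 in control cells.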
